A study of Mus musculus with 7 samples.

Results

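The genes described here are HSF1, the transcription factor of the cytosolic heat-shock response, and 9 cytosolic chaperone and co-chaperone genes. They were taken by symbol from the deposited counts, and all 10 were among its 24421 rows. RNA-seq had been run on sorted LSK cells, which are Lin-Sca1+Kit+ and include the hematopoietic stem cells and early progenitors of the marrow. Lethally irradiated BoyJ mice had received marrow carrying RosaCreERT2, a Cre recombinase driven from the Rosa locus and switched on by tamoxifen, and the donors were either Ddx41+/+ or carried 1 floxed Ddx41 allele. Recipients of both genotypes were given tamoxifen (1 mg, 2 rounds of 5 days), so that the cells termed Ddx41+/- had 1 allele deleted and the Ddx41+/+ cells shared the Cre and the drug. LSK cells were sorted 8 weeks after transplant from 4 Ddx41+/+ recipients (replicates 1 to 4) and 3 Ddx41+/- recipients (replicates 6 to 8), and each sample was 1 recipient mouse. The ages of the mice are not given in the sources used here.

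Cells at rest hold HSF1 in an inactive state bound to chaperones. When unfolded protein occupies those chaperones, HSF1 forms trimers, binds heat-shock elements, which are inverted repeats of the unit GAA spaced by 2 bases, and induces the chaperone genes. Hspa1a and Hspa1b encode the inducible HSP70, nearly absent from unstressed cells, whereas Hspa8 encodes the constitutive HSC70. Hsph1 (HSP110) exchanges nucleotide on HSP70, Dnajb1 (HSP40) delivers clients to it, and Bag3 links it to the small heat-shock proteins and to autophagy. Hsp90aa1 and Hsp90ab1 encode the inducible and the constitutive cytosolic HSP90, and Hspb1 (HSP25 in mouse) is a small heat-shock protein that holds unfolded clients.

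The RefSeq promoters of the inducible HSP70 genes are shown first because these genes varied together across the samples. Sequences were matched for 6 of the 10 members, all but Hspa8, Hsp90aa1, Hsp90ab1 and Hsf1. The 250 bases before the start are printed 5′ to 3′ on the coding strand (build GRCm38.p6), and capitals mark each heat-shock element of 2 neighbouring units, TTCNNGAA or GAANNTTC. The sequence of Hspa1a lies at chr17:34972157-34972406 (minus strand) and that of Hspa1b at chr17:34959239-34959488 (minus strand).
Hspa1a: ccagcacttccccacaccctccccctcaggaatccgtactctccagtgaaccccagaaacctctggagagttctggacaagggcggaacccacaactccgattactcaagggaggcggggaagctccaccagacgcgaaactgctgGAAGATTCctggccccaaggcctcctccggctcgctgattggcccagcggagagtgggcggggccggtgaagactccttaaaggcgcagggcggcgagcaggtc
Hspa1b: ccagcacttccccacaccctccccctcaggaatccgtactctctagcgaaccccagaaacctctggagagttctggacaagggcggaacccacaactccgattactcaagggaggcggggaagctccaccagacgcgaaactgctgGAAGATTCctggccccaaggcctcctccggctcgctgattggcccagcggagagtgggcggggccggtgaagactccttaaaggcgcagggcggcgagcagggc
Over these 250 bases the genes differed at 3 positions, C44T, T47C and T249G, with the Hspa1a base given first, then the position counted from 1 at the 5′ end, then the Hspa1b base. The element stood at the same place in both, with its first base 104 bases before the start.

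Shorter stretches are shown for Hspb1 and Hsph1 because they hold the only other elements found before a member's start. The Hspb1 stretch lies at chr5:135887772-135887858 (plus strand) and holds 2 elements, which begin 117 and 97 bases before the start. The Hsph1 stretch lies at chr5:149636351-149636380 (minus strand), with 1 element that begins 33 bases before the first RefSeq start and 54 before another, and it lies at the 5′ end of the gene as GENCODE places it.
Hspb1: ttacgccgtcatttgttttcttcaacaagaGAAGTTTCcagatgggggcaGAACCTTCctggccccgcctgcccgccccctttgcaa
Hsph1: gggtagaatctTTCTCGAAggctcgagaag
No such element was found before the starts of Bag3 or Dnajb1, and the element of 3 neighbouring units, searched on both strands, was found before the start of none of the 6. Dnajb1 has more than 1 RefSeq start, and its window at chr8:83608298-83608547 lies inside the gene as GENCODE places it. Only exact matches were counted, so a gene without a match may still hold other forms of the element. Of all 32851 promoters in the same RefSeq set, 12.8% held the 2-unit element in these 250 bases and 0.466% held the 3-unit element, which contains the 2-unit one. With the 50 bases after the start included, Bag3 held 1 2-unit element and Hsph1 held 3, and 15.1% of all promoters held it. A match describes the letters of the window only.

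Total counts ranged from 32234499 to 43751290 per sample. Values are given as CPM, counts scaled to the TMM-adjusted library size. Ddx41, the deleted gene, had 92.8, 98.8, 93.3 and 106.6 CPM in the Ddx41+/+ samples and 68.1, 64.4 and 69.5 CPM in the Ddx41+/- samples. Its Ddx41+/- mean was 68.8% of the Ddx41+/+ mean (log2 fold change -0.54, SE 0.071, adjusted p = 0.0052 by the edgeR quasi-likelihood test with Benjamini-Hochberg adjustment). All 6 LSK markers were above 0 in every sample, with a summed level of 1552 to 1712 CPM in Ddx41+/+ and 1447 to 1593 CPM in Ddx41+/-.

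None of the members passed the threshold between the genotypes. Of the 9 members with enough counts to be tested, 0 had an adjusted p under 0.05 by edgeR, against 0.217% of the 13340 genes tested. At an unadjusted p under 0.05, 3 members were higher in Ddx41+/- (Hspa8, Hsph1 and Hsp90aa1) and 0 were lower, against 5.7% of all genes tested that were higher at this level. DESeq2 and limma-voom also gave 0 members past the adjusted threshold, with 3 and 5 members at an unadjusted p under 0.05. DESeq2 gave no p for Hspa1b, which therefore could not pass there. The count of members at that unadjusted level was 1 without Ddx41+/- replicate 7 and 5 without Ddx41+/+ replicate 3. The log2 fold change was above 0 for 8 of the 9, against 6512 of the 13340 genes tested. Among these 8, Hsp90ab1, Bag3 and Hsf1 lay near 0 (0.02, 0.05 and 0.00), and Hspa1a and Hspa1b share sequence and are not independent. The median was 0.168 over the members and -0.0048 over all genes tested. In these sorted populations, fewer cells that express a gene and less RNA per cell cannot be told apart.

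**Figure D1:**
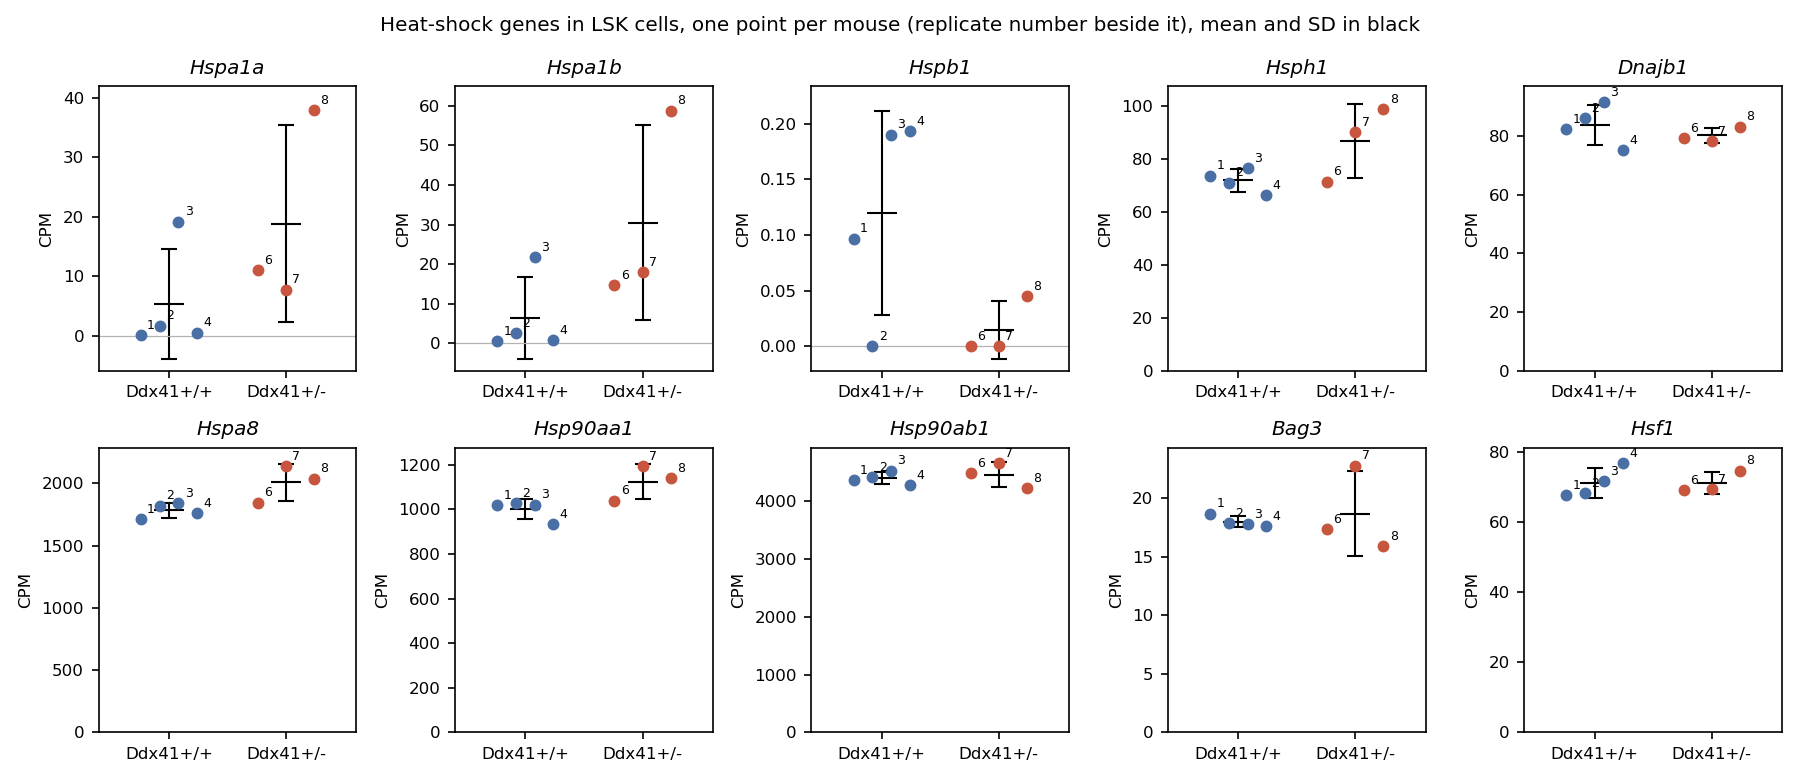
CPM of the 10 members in each LSK sample (y axis, CPM, one scale per gene), with Ddx41+/+ in blue, Ddx41+/- in red, replicate numbers beside the points, and the mean and SD in black. Hspa1a and Hspa1b range widely within both genotypes, from 0.193 to 37.9 CPM for Hspa1a, whereas Hsp90ab1 stays between 4222.4 and 4647.5 CPM.

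Per kilobase of exon, the HSP90 genes and the constitutive HSP70 were the most abundant. Exon lengths were not corrected for sequence shared with other genes, given below, so these levels describe the counts as deposited. In the Ddx41+/+ samples, Hsp90ab1 stood at 1743.1 ± 40.6 CPM per kilobase (SD, n = 4), Hspa8 at 744.9 ± 25.0 and Hsp90aa1 at 295.9 ± 13.2. By CPM not scaled for length, Hsp90ab1 ranked 4 and Hspa8 ranked 22 among all genes. HSF1 itself and the co-chaperones formed a middle tier, with Hsf1 at 31.5 ± 1.87 CPM per kilobase, Dnajb1 at 26.2 ± 2.14, Hsph1 at 17.0 ± 1.02 and Bag3 at 7.02 ± 0.188. The inducible HSP70 genes were lower, at 2.32 ± 3.67 for Hspa1b and 1.83 ± 3.11 for Hspa1a, and these neighbours did not differ beyond their spread. Hspb1 was lowest at 0.116 ± 0.0888. In the Ddx41+/- samples, Hspa1b stood at 10.9 ± 8.74 CPM per kilobase, Bag3 at 7.3 ± 1.42 and Hspa1a at 6.36 ± 5.57 (SD, n = 3), and these 3 neighbours did not differ beyond their spread. The 10 members together held 0.743% ± 0.0207 of all counts in Ddx41+/+ and 0.789% ± 0.0334 in Ddx41+/-.

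Hspa1a and Hspa1b lie near each other on chromosome 17 (GRCm38, GENCODE M21), Hspa1b at chr17:34956436-34959238 and Hspa1a at chr17:34969190-34972156, both on the minus strand. Of all 75-base windows of the Hspa1a transcript, 52.7% also occurred in Hspa1b, and 55.8% of the Hspa1b windows occurred in Hspa1a, so reads could not always be assigned to either gene and their sum is given as well. An exon of Hspa1a also overlaps the exon of Gm20481 on the opposite strand. How the counting treated shared reads and strand is not given in the sources used here.

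Hspa1a had 0.193, 1.76, 19.2 and 0.553 CPM in Ddx41+/+ replicates 1 to 4 (8, 68, 609 and 20 counts) and 11.0, 7.77 and 37.9 CPM in Ddx41+/- replicates 6 to 8 (432, 262 and 1680 counts). Replicate 3 was the only Ddx41+/+ sample inside the range of the Ddx41+/- samples, and the other 3 lay below it. Hspa1b had 0.677, 2.64, 21.9 and 0.801 CPM in Ddx41+/+ (28, 102, 692 and 29 counts) and 14.8, 18.0 and 58.8 CPM in Ddx41+/- (583, 608 and 2607 counts). The order was nearly the same, with Ddx41+/- replicate 8 highest, Ddx41+/+ replicate 3 next and Ddx41+/+ replicate 1 lowest.

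Summed, the inducible HSP70 genes had 0.87, 4.4, 41.1 and 1.35 CPM in Ddx41+/+ and 25.8, 25.8 and 96.7 CPM in Ddx41+/-. The highest sample was 111-fold above the lowest over all 7 samples, 47.2-fold within Ddx41+/+ and 3.75-fold within Ddx41+/-. The Ddx41+/- mean was 4.14 times the Ddx41+/+ mean (49.4 ± 40.9, n = 3, against 11.9 ± 19.5, n = 4), and the ratio of the medians was 8.97. By edgeR on the table with the genes summed, this was 2.09 as a log2 fold change (SE 1.4, adjusted p = 0.684), and 0.232% of the genes tested passed there. The sample left out decided the size of this value, which was 4.49 without Ddx41+/+ replicate 3 (adjusted p = 0.338) and 1.14 without Ddx41+/- replicate 8 (adjusted p = 0.911). By limma-voom it was 3.60 (SE 0.89, unadjusted p = 0.00121, adjusted p = 0.139). Hspa1a and Hspa1b were the members that limma-voom added at an unadjusted p under 0.05. By edgeR the unadjusted p of the summed genes was 0.201, and 0.0323 without the robust option (adjusted p = 0.411). Taken singly, Hspa1a had a log2 fold change of 1.84 (SE 1.5, adjusted p = 0.742 by edgeR) and Hspa1b one of 2.28 (SE 1.3, adjusted p = 0.632 by edgeR). Without Ddx41+/+ replicate 3 these were 4.51 and 4.48, and without Ddx41+/- replicate 8 they were 0.81 and 1.36.

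The constitutive HSC70 gene, Hspa8, lies at chr9:40800984-40810087 (plus strand) and hosts small nucleolar RNAs of the Snord14 family. Its level was 1710.0, 1821, 1842 and 1759.8 CPM in Ddx41+/+ and 1845.5, 2139 and 2037 CPM in Ddx41+/-, so the genotypes did not overlap, although Ddx41+/+ replicate 3 and Ddx41+/- replicate 6 were nearly equal. The Ddx41+/- mean was 113% of the Ddx41+/+ mean, with a log2 fold change of 0.17 (SE 0.063, adjusted p = 0.336 by edgeR). Of its 75-base windows, 68.0% also occurred in at least 1 of 9 other annotated genes, chiefly the pseudogene Gm15459 (64.3%), and none of the 9 had a row of counts.

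Hsph1, the HSP110 exchange factor at chr5:149614287-149636376 (minus strand), had 73.8, 71.1, 76.5 and 66.4 CPM in Ddx41+/+ and 71.5, 90.2 and 98.8 CPM in Ddx41+/-. Ddx41+/- replicate 6 lay within the Ddx41+/+ range and the other two lay above it. Its Ddx41+/- mean was 121% of the Ddx41+/+ mean, with a log2 fold change of 0.27 (SE 0.095, adjusted p = 0.318 by edgeR), which was 0.17 without Ddx41+/- replicate 8. The adjusted p of Hsph1 ranged from 0.068 to 0.684 over the alternatives. No window of Hsph1, Dnajb1, Bag3 or Hsf1 occurred in another gene.

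Of the cytosolic HSP90 genes, only the inducible form had genotypes that did not overlap. Hsp90aa1, the inducible form at chr12:110690605-110702728 (minus strand), had 1018.9, 1028, 1020.6 and 934 CPM in Ddx41+/+ and 1039, 1194 and 1139 CPM in Ddx41+/-. Ddx41+/+ replicate 4 stood below the rest. Its Ddx41+/- mean was 112% of the Ddx41+/+ mean, with a log2 fold change of 0.17 (SE 0.063, adjusted p = 0.352 by edgeR). Of its windows, 53.1% occurred in other genes, chiefly Gm12346 (45.0%), and none of these 3 genes had a row of counts.

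Hsp90ab1, the constitutive form at chr17:45567775-45573271 (minus strand), had 4359, 4411, 4523 and 4278 CPM in Ddx41+/+ and 4484, 4648 and 4222 CPM in Ddx41+/-. Both the highest and the lowest sample were Ddx41+/-. The log2 fold change was 0.02 (SE 0.059, adjusted p = 0.939 by edgeR). Hspa8 and Hsp90aa1 were thus the 2 members whose genotypes did not overlap, both with Ddx41+/- higher, against 4.85% of all genes tested. Summed neutrophil markers also did not overlap, at 727 to 1237 CPM in Ddx41+/+ and 1315 to 2252 CPM in Ddx41+/- (exact two-sided permutation test on log2 values, p = 0.0571). All 8 markers were above 0 in every sample. Taken singly, Ngp (163.2 to 289.6 CPM in Ddx41+/+ against 280.5 to 558.3) and Retnlg (1.99 to 5.18 against 4.62 to 8.48) did overlap, and the others did not. The part of the neutrophil markers in these differences was not tested.

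Dnajb1, the HSP40 gene at chr8:83608193-83612653 (plus strand), had 82.4, 86.1, 91.6 and 75.3 CPM in Ddx41+/+ and 79.2, 78.3 and 83.2 CPM in Ddx41+/-. The Ddx41+/- samples all lay inside the Ddx41+/+ range, and Dnajb1 was the only tested member with a log2 fold change below 0 (-0.06, SE 0.074, adjusted p = 0.817 by edgeR). Bag3, at chr7:128523616-128546981 (plus strand), had 18.7, 17.9, 17.8 and 17.6 CPM in Ddx41+/+ and 17.4, 22.8 and 15.9 CPM in Ddx41+/-. Its Ddx41+/+ samples lay close together (SD 0.481), whereas Ddx41+/- replicates 7 and 8 were the highest and the lowest of all (SD 3.63). The log2 fold change of Bag3 was 0.05 (SE 0.13, adjusted p = 0.918 by edgeR).

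Hsf1, at chr15:76477422-76501913 (plus strand), had 67.7, 68.1, 71.5 and 76.8 CPM in Ddx41+/+ and 69.0, 69.4 and 74.6 CPM in Ddx41+/-. The means were equal at 71.0 CPM (SD 4.23 and 3.11), and the log2 fold change was 0.00 (SE 0.072, adjusted p = 1.0 by edgeR). HSF1 is controlled largely after transcription, which these counts do not measure. Hspb1, at chr5:135887919-135889563 (plus strand), had 4, 0, 6 and 7 counts in Ddx41+/+ and 0, 0 and 2 counts in Ddx41+/-, and was too low to be tested. A count of 0 allows up to 3 counts, which is 0.0776 CPM in Ddx41+/+ replicate 2 and 0.0762 and 0.0890 CPM in Ddx41+/- replicates 6 and 7 (counting error only). Of its windows, 47.3% also occurred in the pseudogene Hsp25-ps1, which had no row of counts.

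**Figure D2:**
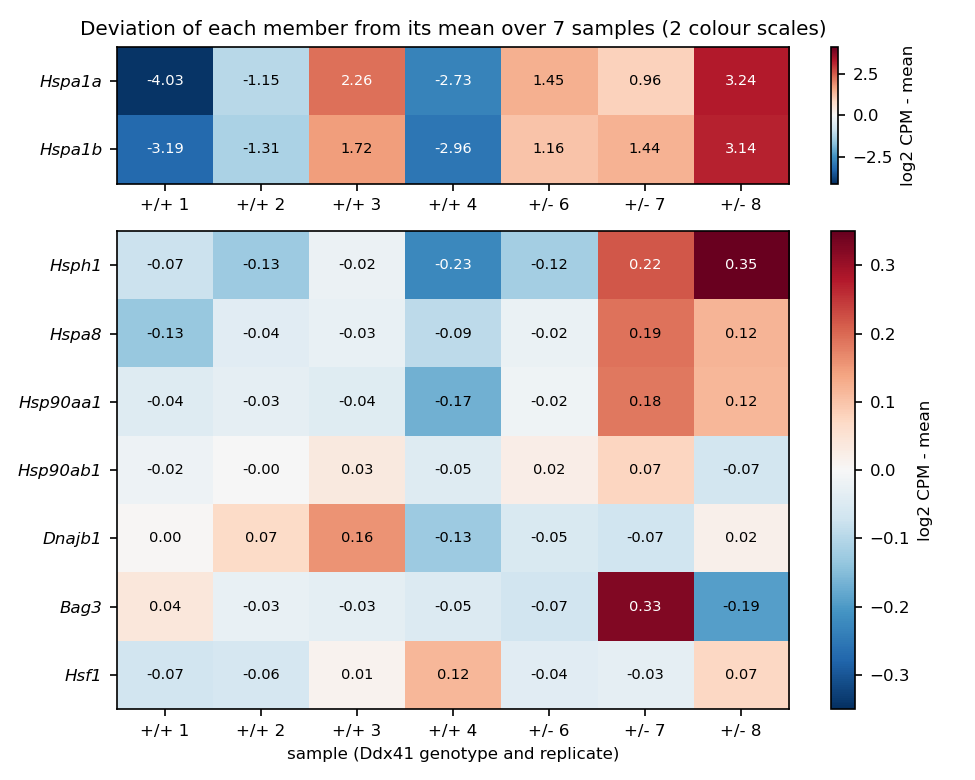
Deviation of log2 CPM from the gene's mean over 7 samples for the 9 tested members (rows) in each sample (columns), with a wider colour scale for Hspa1a and Hspa1b. Hspa1a spans -4.03 to 3.24 and Hspa1b -3.19 to 3.14, whereas the other 7 members stay within 0.35 of their means.

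Across samples, the highest level of a member was most often in the Ddx41+/- group, in replicate 7 for 4 of the 9 tested members and in replicate 8 for 3. The exceptions were Dnajb1, highest in Ddx41+/+ replicate 3, and Hsf1, highest in Ddx41+/+ replicate 4. The lowest level was in Ddx41+/+ replicate 1 for 4 members, in Ddx41+/+ replicate 4 for 3 and in Ddx41+/- replicate 8 for 2. The last were Hsp90ab1 and Bag3, so the sample with the most inducible HSP70 had the least of these. Hspa1a and Hspa1b share sequence and were both highest in Ddx41+/- replicate 8 and lowest in Ddx41+/+ replicate 1, so they are not independent. These places were not counted over all genes tested, so whether they are particular to the members is not known.

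The inducible genes differed from the other members above all in their spread between mice. The SD of log2 CPM within genotypes was 2.24 for Hspa1a, the highest of all 13340 genes tested, and 1.88 for Hspa1b, which ranked 10. The median over all genes tested was 0.144 and the 95th percentile was 0.893. Among the 500 genes nearest in mean level, both stood at percentile 99.8. Against its own 500 neighbours, Hsph1 stood at percentile 92.8, Bag3 at 63.2, Dnajb1 at 50.2, Hsp90aa1 at 49.8, Hspa8 at 47.0, Hsf1 at 28.4 and Hsp90ab1 at 20.0. These percentiles describe the libraries and carry no test.

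**Figure D3:**
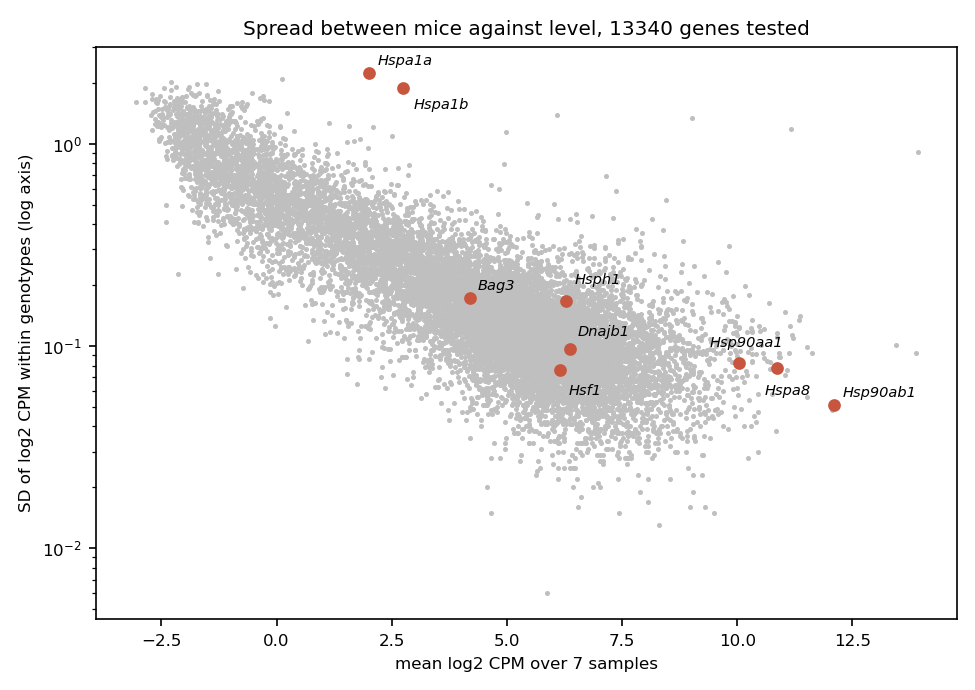
SD of log2 CPM within genotypes (y axis, log scale) against mean log2 CPM over 7 samples (x axis) for all 13340 genes tested (grey), with the 9 tested members in red. Hspa1a (2.24) and Hspa1b (1.88) lie above the genes of like level, and the other members lie within the cloud.

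Whether the inducible form gained on the constitutive one was compared within each sample, where library scaling has no part. Per 100 Hspa8 counts there were 0.0509, 0.242, 2.23 and 0.0769 counts of the inducible HSP70 genes in Ddx41+/+ and 1.40, 1.21 and 4.74 in Ddx41+/-. Inducible HSP70 was thus a small part of the HSP70 counts in every sample. The log2 ratio averaged -8.87 ± 2.45 (n = 4) in Ddx41+/+ and -5.64 ± 1.08 (n = 3) in Ddx41+/-, a difference of 3.22 (exact two-sided permutation test over 35 arrangements, p = 0.114, 0.171 after adjustment over 3 ratios, smallest possible p 0.0286).

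Per 100 Hsp90ab1 counts there were 23.4, 23.3, 22.6 and 21.8 Hsp90aa1 counts in Ddx41+/+ and 23.2, 25.7 and 27.0 in Ddx41+/-. Ddx41+/- replicate 6 lay within the Ddx41+/+ range, and the other two lay above it. The log2 ratio was -2.14 ± 0.0463 (n = 4) in Ddx41+/+ and -1.99 ± 0.112 (n = 3) in Ddx41+/-, a difference of 0.148 (exact permutation p = 0.0857, adjusted 0.171).

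Hspa1a made up 22.2%, 40.0%, 46.8% and 40.8% of the summed Hspa1a and Hspa1b counts in Ddx41+/+ and 42.6%, 30.1% and 39.2% in Ddx41+/-. The 95% Wilson intervals, which cover counting error only, ran from 44.1% to 49.5% in Ddx41+/+ replicate 3 and from 27.2% to 33.2% in Ddx41+/- replicate 7, so these samples differed in the split beyond counting error. With 36 counts in all, the interval of Ddx41+/+ replicate 1 was wide, from 11.7% to 38.1%. Between the genotypes, the mean share differed by -0.174 percentage points (exact permutation p = 1.0, n = 4 and 3). The sign of this difference depended on single samples, since it was -5.25, 0.672, 2.94 and 0.944 without Ddx41+/+ replicates 1 to 4 in turn and -2.81, 3.41 and -1.12 without Ddx41+/- replicates 6 to 8.

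**Figure D4:**
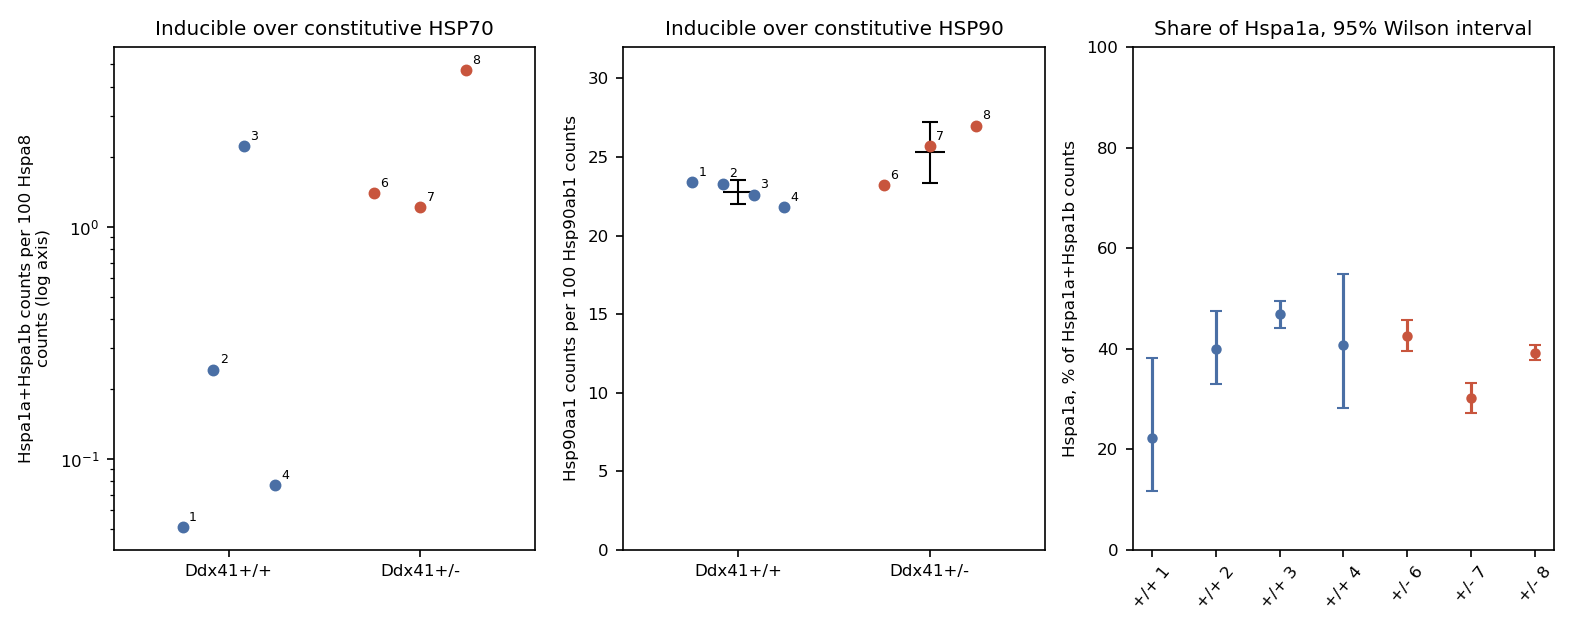
Inducible HSP70 counts per 100 Hspa8 counts (left, log axis), Hsp90aa1 counts per 100 Hsp90ab1 counts with mean and SD (middle), and the share of Hspa1a in the summed Hspa1a and Hspa1b counts with 95% Wilson intervals (right), per sample, with Ddx41+/+ in blue and Ddx41+/- in red. Ddx41+/+ replicate 3 stands at 2.23 on the left, between Ddx41+/- replicates 6 (1.40) and 8 (4.74).

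**Figure D5:**
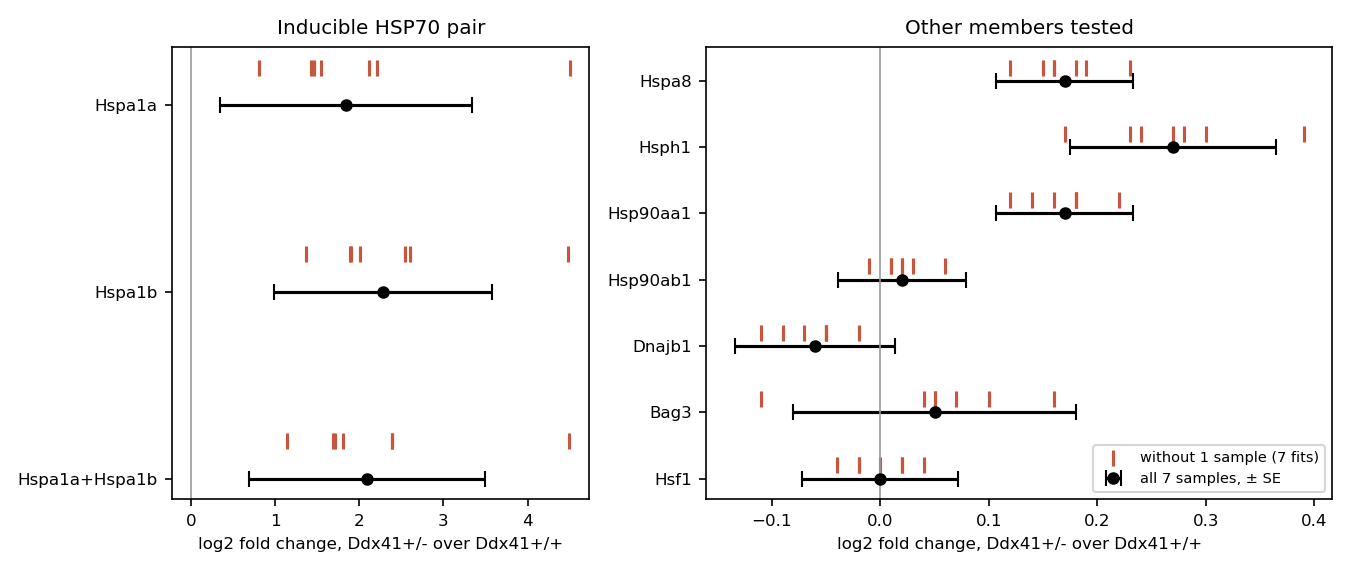
Log2 fold change of Ddx41+/- over Ddx41+/+ (x axis) with its SE for the inducible HSP70 genes (left) and the other tested members (right, finer axis); red ticks are the 7 fits that each leave out 1 sample. The ticks of the summed HSP70 genes run from 1.14 to 4.49, and those of Hsp90ab1, Bag3 and Hsf1 fall on both sides of 0.

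Genes whose log2 CPM followed that of the summed inducible HSP70 genes most closely over the 7 samples were Azin1 (Pearson's r 0.972, Spearman's rho 0.857), Hist1h3d (0.963, 0.893), Neto2 (0.955, 0.964), Zfp458 (0.953, 0.964), Abce1 (0.953, 0.893), Rc3h2 (0.952, 0.964), Idh1 (0.948, 0.929) and Faf1 (0.947, 0.964). They are the highest of 11768 genes with a mean of at least 1 CPM, predicted genes left out, and the points share their libraries and genotypes, so the values are a description. Azin1 encodes an antizyme inhibitor that sustains polyamine synthesis, Abce1 a factor that recycles ribosomes and Idh1 the cytosolic isocitrate dehydrogenase. Azin1 had 150, 154, 174 and 144.7 CPM in Ddx41+/+ and 174.4, 173 and 181.1 CPM in Ddx41+/-. Ddx41+/+ replicate 3 stood with the Ddx41+/- samples, which follows from choosing Azin1 by its r with the summed genes. Of the other members, Hspa8 had an r of 0.751 with the summed genes, Hsph1 one of 0.713 and Hsp90aa1 one of 0.665, and r was 0.328 for Dnajb1, 0.251 for Hsp90ab1, 0.127 for Hsf1 and -0.126 for Bag3. With the genotype means removed, r was 0.840 for Dnajb1, 0.460 for Hspa8 and for Hsph1, 0.286 for Hsp90aa1, 0.172 for Hsf1, 0.155 for Hsp90ab1, -0.304 for Bag3 and 0.949 for Azin1.

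Early response genes and inducible HSP70 ranked the samples alike only in part. The 13 early response genes (Fos, Jun and others, switched on within minutes of many stimuli, cell handling included) summed to 522, 452, 613 and 980 CPM in Ddx41+/+ and to 814, 1352 and 1292 CPM in Ddx41+/-. Ddx41+/- replicates 7 and 8 were the highest of all samples for these, with 25.8 and 96.7 CPM of inducible HSP70. Ddx41+/+ replicate 4 was highest of its group for these, with 1.35 CPM of inducible HSP70, and replicate 3, with 41.1 CPM of inducible HSP70, stood at 613 CPM. The part of cell handling in the HSP70 level was not tested. Replicate 3 had the highest summed neutrophil markers of the Ddx41+/+ samples (1237 CPM) and the lowest total count (32234499), and the part of these in its HSP70 level was not tested. Ddx41+/- replicate 8, highest in inducible HSP70, had the highest summed stromal and endothelial markers, 43.5 CPM against 18.0 to 21.8 CPM in the other samples of both genotypes, with all 6 of that list above 0 in every sample, and their part was not tested. Within that list the collagen genes reached the highest values in Ddx41+/- (Col1a1 1.47 to 14.9 CPM against 0.822 to 2.2 in Ddx41+/+, and Col1a2 3.94 to 16.8 against 3.24 to 5.03), whereas the endothelial genes Cdh5 and Emcn did not exceed the Ddx41+/+ range (Cdh5 at most 0.208 CPM in Ddx41+/- and at least 0.19 CPM in Ddx41+/+, and Emcn 4.89 to 7.85 against 4.7 to 9.21). Globin genes Hba-a1, Hba-a2, Hbb-bs and Hbb-bt were listed at 0 in all samples.

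Of 67 other genes of the chaperone network, in 9 lists, 57 were tested and 0 passed the adjusted threshold of edgeR in either direction. At an unadjusted p under 0.05, 5 were higher in Ddx41+/- and 0 were lower, against 5.7% of all genes tested that were higher at this level, and the median log2 fold change was 0.007. Of the HSP70 and HSP110 relatives, 5 were tested (median 0.089), led per kilobase by Hspa4, another HSP110 (369.9 ± 17.2 against 393.4 ± 12.9 CPM), and Hspa14 (111.7 ± 5.28 against 112.0 ± 5.04 CPM), Ddx41+/+ first. The 10 J-domain partners of HSP70 (median 0.049) were led by Dnajc7 (154.5 ± 12.4 against 159.1 ± 5.72 CPM) and Dnaja2 (191.4 ± 11.4 against 202.1 ± 13.4 CPM). The 7 tested HSP70 co-chaperones (median -0.041) were led by Bag1, a nucleotide exchange factor (165.9 ± 4.19 against 157.6 ± 8.95 CPM), and St13 (187.4 ± 9.58 against 194.2 ± 8.06 CPM).

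The 14 HSP90 co-chaperones (median 0.013) were led by the immunophilin Fkbp4 (472.4 ± 18.3 against 472.0 ± 9.89 CPM) and Nudc (262.3 ± 6.78 against 261.8 ± 18.5 CPM). The 8 subunits of the chaperonin CCT, which folds actin and tubulin (median 0.001), were led by Cct5 (627.9 ± 17.9 against 636.1 ± 23.4 CPM) and Cct2 (586.2 ± 42.3 against 584.9 ± 29.0 CPM). Of the genes listed as small heat-shock proteins, 3 of 8 were tested (median -0.492, the value of Hspb11). They were led by Hspb11 (3.95 ± 0.596 against 2.80 ± 0.479 CPM, adjusted p = 0.487 by edgeR) and Hspb6 (6.64 ± 1.56 against 6.36 ± 1.58 CPM). Of the other heat-shock factors and their binding protein, 2 of 4 were tested, Hsbp1 (86.4 ± 5.88 against 85.2 ± 6.55 CPM) and Hsf2 (13.2 ± 1.71 against 13.2 ± 0.671 CPM). The 4 mitochondrial chaperones (median 0.01) were led by Hspd1 (579.5 ± 36.7 against 621.8 ± 18.5 CPM) and Hspa9 (634 ± 18.8 against 635.7 ± 18.0 CPM).

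The ER chaperones, which answer to the unfolded protein response and not to HSF1, had the highest median of the 9 lists, 0.258. All 4 had an unadjusted p under 0.05 with Ddx41+/- higher, and 0 passed the adjusted threshold, against 5.7% and 0.217% of all genes tested. The summed neutrophil markers given above were also higher in Ddx41+/- (727 to 1237 CPM in Ddx41+/+ against 1315 to 2252 CPM), and their part was not tested. Hspa5 (BiP), the HSP70 of the ER, had 825.2, 895, 924.6 and 859.4 CPM in Ddx41+/+ and 995.5, 1148.5 and 1242 CPM in Ddx41+/-. In Ddx41+/- replicates 6 to 8 the summed neutrophil markers were 2252.5, 1566.0 and 1315.1 CPM, and their part in the Hspa5 level was not tested. For Hspa5 the genotypes did not overlap, and BiP gave a log2 fold change of 0.37 (SE 0.072, adjusted p = 0.0503 by edgeR). It was the 1 listed gene that passed under some alternatives, with an adjusted p of 0.000523 by DESeq2, 0.00458 with no filter on low counts, 0.049 by limma-voom with sample quality weights and 0.0324 without Ddx41+/- replicate 6, whereas it stood at 0.0748 by limma-voom and at 0.179 without Ddx41+/- replicate 8. Hsp90b1 (GRP94), the HSP90 of the ER, had 914 ± 60.5 CPM in Ddx41+/+ and 1098 ± 128.8 CPM in Ddx41+/- (log2 fold change 0.26, SE 0.077, adjusted p = 0.226 by edgeR). Whether the ER members differed from their cytosolic relatives was not tested.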

How the data were processed

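LSK cells of 7 recipient mice were sequenced, with groups taken from the genotype label. The authors deposited unnormalized counts for each gene symbol. Their processing notes name FastQC 0.11.7, HISAT2 2.0.5, featureCounts 1.5.2 and mm10; the counting settings are not given in the sources used here. A Ddx41+/- library numbered 5 was removed before deposit according to the name of the counts, and was not analysed here.

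Genotypes were compared in R 4.3.3 by edgeR 4.0.16 (quasi-likelihood, TMM scaling, filterByExpr, robust fit), two-sided, with Benjamini-Hochberg adjustment over all 13340 genes tested (54.6% of rows) and a threshold of 0.05. The fit was tested on simulated data. Log2 CPM used a prior count of 2. Ratios were compared by exact permutation. Alternatives used limma 3.58.1, DESeq2 1.42.0, other scalings, no filter, and each sample left out in turn. The labels give no batch. No 2 samples agreed within sampling noise, with a chi-square per gene of at least 13.7 over the 21 pairs.

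Positions came from GENCODE M21 (GRCm38) and promoters from RefSeq (GRCm38.p6). The members and gene lists were chosen with earlier results of these data known. Named beside them are Ddx41, the 2 genes of each list highest in CPM per kilobase, and the 8 genes most like the summed HSP70 genes.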

Additional observations from a re-analysis of the deposited data

Results flagged for a closer look

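In the 4 Ddx41+/+ samples, 4 of 14 values checked had a sample whose gap to its nearest neighbour exceeded Dixon's critical ratio for 4 samples. Chance gives about 1 in 20, or 0.7 of 14, where values are normally distributed. These were Hspa1a in replicate 3 (19.2 CPM, the nearest 1.76, ratio 0.918), Hspa1b in replicate 3 (21.9 CPM, the nearest 2.64, ratio 0.907) and their sum in replicate 3 (41.1 CPM, the nearest 4.4, ratio 0.912), which are not independent of each other. Hsp90aa1 in replicate 4 was low (934 CPM, the nearest 1018.9, ratio 0.901). The ratios were taken on CPM and not on log2 CPM, and they depend on that scale for genes that range as widely as Hspa1a and Hspa1b. On log2 CPM, Hspa1a stood at -2.02, 0.858, 4.27 and -0.724 in Ddx41+/+ replicates 1 to 4, which are more evenly spaced. The number of flags is thus no evidence that replicate 3 is an outlier.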

How the results depend on the processing

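No paired analysis was possible because the genotypes share no replicate numbers. Of the 9 tested members, 0 passed the adjusted threshold under each of 15 other settings and the 1 added after seeing the data (without Ddx41+/+ replicate 3 and Ddx41+/- replicate 8). The number at an unadjusted p under 0.05 was 3 with all samples, 5 by limma-voom, 5 by limma-voom with sample quality weights, and 1 to 5 when 1 sample was left out; the cause was not tested. Hspa8, Hsph1, Hsp90aa1, Hspa1a and Hspa1b kept a positive log2 fold change throughout, whereas Hsp90ab1 changed sign in 2, Bag3 in 2 and Hsf1 in 10 of 16. The summed HSP70 genes ranged from 1.14 to 4.49 with adjusted p from 0.0798 to 0.911. DESeq2 gave no p for the summed genes or for Hspa1b, so Hspa1b could not pass under that setting. The number of all genes past the threshold was 29, and 15 with library totals only, 91 with no filter on low counts, 164 by DESeq2, 10 by limma-voom and 14 by edgeR without the robust option, and 7 to 41 when 1 sample was left out. With 4 and 3 samples, the smallest permutation p is 0.0286, and counts of 8 and 20 for Hspa1a limit its low samples.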
